A study of Mus musculus with 9 samples.

Results

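Transcripts of the Hox cluster genes were measured by RNA sequencing in LSK cells of mouse bone marrow, the sorted immature cells that are negative for lineage markers and positive for Sca-1 and c-Kit. The genes were chosen by name: 9 genes of the Hoxa and Hoxb clusters were listed, and 8 of them, Hoxa3, Hoxa5, Hoxa7, Hoxa9, Hoxa10, Hoxb2, Hoxb4 and Hoxb5, had a row among the 14461 genes of the deposited table. Hoxb3 and 30 other Hox genes that were searched for by symbol were not analysed here. The libraries came from parabiotic mice, which are joined surgically so that they share a circulation, and each of the labels circulating, irradiated and endogenous was given to 3 libraries. The design text of the series speaks of LSK cells that reached the marrow of an irradiated parabiont through the blood. Strain was given as C57BL/6 for the circulating and irradiated libraries and as B6SJL CD45.1 for the endogenous libraries, so strain and group cannot be told apart in comparisons with endogenous cells. The labels do not say whether the strain given for the circulating libraries is that of the cells or of the host. All mice were specific pathogen free, and age, sex and radiation dose were not given in the sources used here. Whether each library is a separate animal is not in the labels; the p-values therefore rest on a spread between libraries that may be technical.

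Hox genes encode homeodomain transcription factors and lie in clusters in which the order of the genes follows the order of their expression along the body axis. In blood formation, the posterior Hoxa genes, Hoxa9 above all, are known as genes of stem cells and early progenitors whose transcripts decline as cells mature. Hox proteins bind DNA together with cofactors of the TALE homeodomain class, the Pbx, Meis and Pknox proteins. MLL histone methyltransferase complexes maintain Hox transcription, and Polycomb complexes repress it.

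The members lie in 2 clusters. In GRCm38, the assembly that mm10 names, the 5 Hoxa genes run on the minus strand of chromosome 6, from Hoxa3 at chr6:52169062-52213336 to Hoxa10 at chr6:52231197-52240854. Hoxa9 spans chr6:52223100-52231089. The 3 Hoxb genes run on the plus strand of chromosome 11, from Hoxb5 at chr11:96303336-96306121 to Hoxb2 at chr11:96350525-96354012. Hoxb2, Hoxa7 and Hoxa3 share exon sequence with antisense transcripts that have rows of their own: Hoxb2 shares 27.3% of its exon bases with Hoxb3os, Hoxa7 shares 20.4% with Hoxaas3, and Hoxa3 shares 8.36% with Hoxaas2 and 4.94% with Hoxaas3. The library chemistry does not mark strand, so reads from those stretches cannot be assigned to a strand.

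The 250 bases before the RefSeq start (build GRCm38.p6) are shown for Hoxa5, Hoxa9 and Hoxa10, posterior and central Hoxa genes whose levels in the circulating libraries fell into the same order, as given below. They lie on the minus strand at chr6:52204588-52204837, chr6:52227371-52227620 and chr6:52240855-52241104. RefSeq gives Hoxa10 a further start, and the window printed is that of the upstream one. Capitals mark TAAT on either strand (ATTA on the printed strand), the core recognised by many homeodomains.
Hoxa5: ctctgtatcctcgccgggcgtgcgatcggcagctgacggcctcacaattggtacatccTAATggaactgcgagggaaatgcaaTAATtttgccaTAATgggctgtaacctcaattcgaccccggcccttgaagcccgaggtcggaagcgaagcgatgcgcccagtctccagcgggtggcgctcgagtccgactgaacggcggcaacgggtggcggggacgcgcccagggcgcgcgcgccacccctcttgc
Hoxa9: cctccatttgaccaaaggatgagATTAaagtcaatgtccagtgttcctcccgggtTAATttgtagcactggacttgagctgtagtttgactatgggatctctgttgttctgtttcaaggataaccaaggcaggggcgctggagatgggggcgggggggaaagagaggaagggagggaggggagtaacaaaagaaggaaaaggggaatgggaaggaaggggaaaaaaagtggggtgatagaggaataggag
Hoxa10: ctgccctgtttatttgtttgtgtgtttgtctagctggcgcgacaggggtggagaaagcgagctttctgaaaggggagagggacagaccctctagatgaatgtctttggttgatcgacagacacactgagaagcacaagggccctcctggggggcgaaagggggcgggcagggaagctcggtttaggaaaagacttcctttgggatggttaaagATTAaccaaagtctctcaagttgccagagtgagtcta
The Hoxa5 window held 3 TAAT matches, the Hoxa9 window 2 and the Hoxa10 window 1. The window of the other Hoxa10 start, at chr6:52234940-52235189, held 2. TAAT was found in 54.9% of 32851 promoter windows of the same length, so its presence does not set these windows apart. TGATTNAT, a composite of Hox and Pbx half-sites, and TGACAG, a Meis motif, were not found on either strand of these 3 windows, and 2.82% and 15.9% of all windows hold them. The Hoxa9 window lies inside the longer GENCODE span of the gene.

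Values below are deposited normalised values, scaled to library size, and fold changes were taken on log2(value + 1), a scale that makes changes of low genes look smaller. Recovered depth was 14065855 to 27012345 estimated counts per library, and 1 count was worth a value of 0.0365 to 0.0751. Over all tested genes, the median SD between replicates was 0.382 log2 units in circulating, 0.213 in irradiated and 0.262 in endogenous libraries. Gate transcripts were present in every library. Kit was 327, 401 and 410 in circulating libraries, against 737 to 1011 in endogenous libraries. The 5 gate genes summed to 3266, 2594 and 2064 in circulating replicates 1, 2 and 3, against 3845 to 4208 in endogenous libraries. All 5 had a log2 fold change below 0, as did 53% of all genes. Of them 1 was called lower by limma, against 3.3% of all genes, and 3 were lower without overlap, against 12.9%. In such bulk samples, fewer cells of a type and less RNA per cell cannot be told apart.

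The Hoxa genes accounted for nearly all transcript of these 8 genes, and Hoxa9 led. Per kilobase of exon, the level of Hoxa9 had rank 1 among the 8 genes in 9 of 9 libraries, Hoxa7 had rank 2 in 8, Hoxa10 rank 3 in 8 and Hoxa5 rank 4 in 8. Hoxa9 made up 45.7% to 64.3% of the summed level per kilobase, and the 5 Hoxa genes together 95.4% to 98.4%. The mean level of Hoxa9 per kilobase was 19.3 ± 7.40 in circulating, 19.4 ± 1.98 in irradiated and 24.2 ± 3.64 in endogenous libraries (SD, n = 3 each). Hoxa7 had 7.68 ± 6.38, 11.3 ± 1.05 and 12.7 ± 0.798 per kilobase in circulating, irradiated and endogenous libraries. Hoxa10 had 3.56 ± 2.01 in circulating, 4.28 ± 0.452 in irradiated and 6.49 ± 1.08 in endogenous libraries on the same scale.

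The remaining members were lower. Hoxa5 stood at 1.67 ± 1.21 per kilobase in circulating, 1.56 ± 0.257 in irradiated and 2.66 ± 0.581 in endogenous libraries, and Hoxa3 at 0.773 ± 0.114, 0.483 ± 0.0839 and 1.10 ± 0.194 in the same groups. Group means of the 3 Hoxb genes lay between 0.208 and 0.784 per kilobase. Their order among themselves changed between libraries, but in every irradiated library Hoxb2 stood highest of them and above Hoxa3, at rank 5 of the 8 genes.

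**Figure D1:**
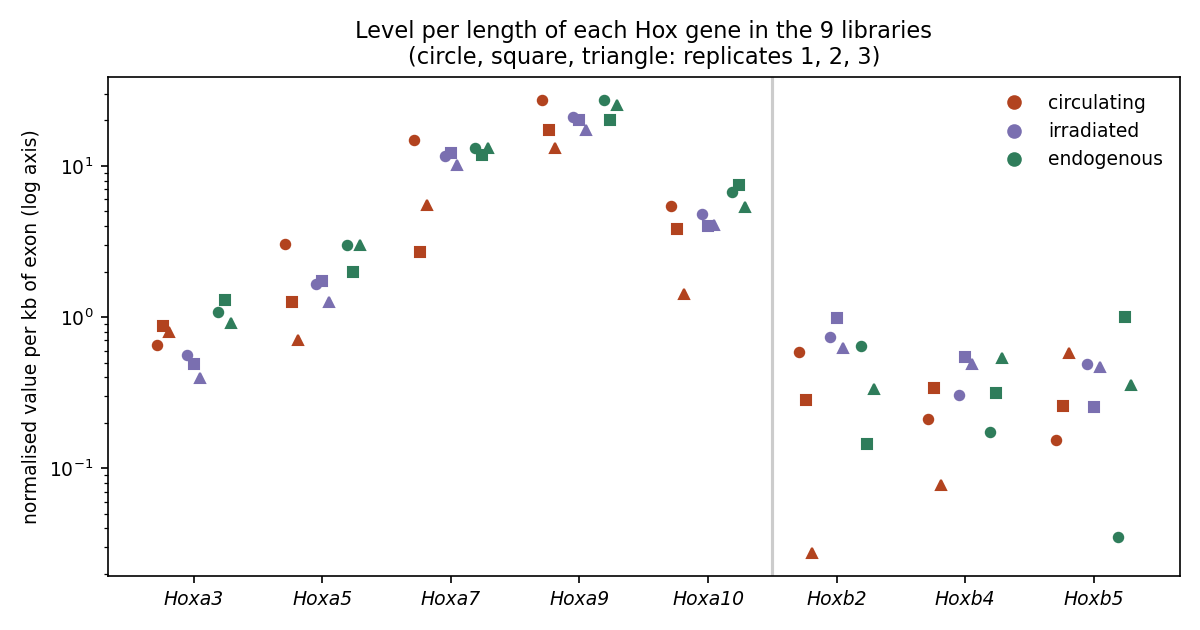
Level of each Hox gene per kilobase of exon (normalised value per kb, log axis) in the 9 libraries; colours mark circulating, irradiated and endogenous cells and shapes mark replicates 1 to 3. Hoxa9 is the highest gene in every library, and the Hoxb genes right of the grey line lie mostly below 1.

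Circulating cells were compared with endogenous cells first. Hoxa9, a posterior Hox factor needed for full stem cell function in mice, had 153, 95.8 and 73.5 in circulating replicates 1, 2 and 3, against 151, 112 and 142 in endogenous replicates. Circulating replicate 1 stood above all endogenous libraries and circulating replicates 2 and 3 below all of them, so the groups overlapped (log2 fold change -0.38, SE 0.24, 95% interval -0.90 to 0.13, limma adjusted p = 0.326). Hoxa7, a central gene of the cluster, had 42.8, 7.70 and 15.8 in circulating libraries, against 37.7, 33.8 and 37.8 in endogenous libraries. Here too circulating replicate 1 was above all endogenous libraries while replicates 2 and 3 were below them. Hoxa7 averaged 22.1 ± 18.4 over the circulating and 36.4 ± 2.30 over the endogenous libraries (log2 fold change -1.01, SE 0.45, 95% interval -1.99 to -0.03, limma adjusted p = 0.176). The antisense transcript Hoxaas3, which shares exon sequence with Hoxa7 and Hoxa3, had 4.61, 4.54 and 1.94 in circulating libraries, against 1.46, 3.25 and 2.74 in endogenous libraries. Unlike those of Hoxa7 and Hoxa3, its log2 fold change was above 0 (0.41, SE 0.39, limma adjusted p = 0.534), and the groups overlapped.

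Hoxa10, whose product acts in stem cells and myeloid progenitors, had 17.7, 12.5 and 4.67 in circulating libraries, against 21.9, 24.4 and 17.4 in endogenous libraries. Circulating replicate 1 reached the lowest endogenous library, so the groups overlapped narrowly (log2 fold change -0.97, SE 0.40, 95% interval -1.84 to -0.09, limma adjusted p = 0.148). Hoxa5, whose forced expression favours myeloid over erythroid development in human progenitors, had 5.69, 2.37 and 1.33 in circulating libraries, against 5.62, 3.74 and 5.63 in endogenous libraries. Its log2 fold change was -0.66 (SE 0.42, limma adjusted p = 0.337). Hoxa3, the most anterior Hoxa member, had 3.91, 5.27 and 4.76 in circulating libraries, against 6.48, 7.82 and 5.49 in endogenous libraries. Among the circulating libraries it was lowest in replicate 1, in which Hoxa5, Hoxa7, Hoxa9 and Hoxa10 were highest. Its groups did not overlap (log2 fold change -0.42, SE 0.32, limma adjusted p = 0.428).

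No Hox gene passed the test between circulating and endogenous cells: 0 of 8 were called by limma, against 8.63% of the 13771 genes tested, and 0 of 8 by voom on recovered counts. At an unadjusted p under 0.05 there were 2 of 8 (Hoxa7 and Hoxa10), against 26.7% of all genes. Groups did not overlap for 1 of 8, with circulating cells lower, against 12.9% of all genes in that direction. All 8 log2 fold changes were below 0, as were those of 53% of all genes, and the median was -0.40 for the Hox genes and -0.04 for all genes.

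These counts changed when circulating replicate 1 was left out. Without circulating replicate 1, Hoxa7 (log2 fold change -1.63, limma adjusted p = 0.0067), Hoxa9 (-0.67, adjusted p = 0.034) and Hoxa10 (-1.33, adjusted p = 0.039) were called lower. The count over all genes, which takes in both directions, was 2224 in place of 1189. The library left out held the highest circulating value of Hoxa7, Hoxa9 and Hoxa10, so their circulating means had to fall without it. No Hox gene was called in the fits that left out any of the other 8 libraries. The SD over the circulating libraries was 1.17 log2 units for Hoxa7, 0.89 for Hoxa10, 0.77 for Hoxa5 and 0.53 for Hoxa9, all above the 0.382 of the median gene, and 0.18 for Hoxa3.

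Marker levels differed along the same libraries. The summed value of 10 myeloid progenitor genes was 13385, 25721 and 40836 in circulating replicates 1, 2 and 3, against 2291 to 3319 in endogenous libraries, and 7 of the 10 rose, against 5.33% of all genes. The summed value of 9 genes associated with haematopoietic stem cells was 243, 194 and 229 in circulating replicates, against 441 to 536 in endogenous libraries, and 5 of the 9 fell, against 3.3% of all genes. Mean Hoxa level, centred per gene on the 9 libraries, was 0.35, -0.47 and -0.74 log2 units in circulating replicates 1, 2 and 3, and 0.49, 0.35 and 0.37 in endogenous libraries. The stem cell list was at -0.45, -0.70 and -0.50 in circulating libraries, so it was low also in replicate 1, in which the Hoxa mean was at the endogenous level. Of the other marker lists, B lineage genes summed to 104 to 263 in circulating and 70.8 to 95.0 in endogenous libraries (2 of 5 tested rose). T lineage genes summed to 60.0 to 221 in circulating libraries, with the 221 in replicate 2, and to 114 to 121 in endogenous libraries. Of the 4 tested, 0 were called by limma and 1 was higher at an unadjusted p under 0.05, against 26.7% of all genes in either direction. Erythroid genes summed to 152, 387 and 772 in circulating replicates 1, 2 and 3, the order in which the myeloid progenitor sum rose. In endogenous libraries they summed to 107 to 145 (1 of 5 rose). Mature neutrophil genes summed to 1136 to 1808 in circulating and 1044 to 2183 in endogenous libraries (1 of 6 fell). Of 10 stromal and endothelial genes, which mark cells that carry Hox transcripts of their own, 4 had a row, and they summed to 105 to 117 in circulating and 152 to 170 in endogenous libraries. Of the 3 tested, Pecam1, an endothelial adhesion gene also found on blood cells, fell (log2 fold change -0.50, limma adjusted p = 0.0425). Pdgfrb, which did not pass, had 41.0, 20.5 and 26.4 in circulating libraries, against 64.0, 39.5 and 48.6 in endogenous libraries. At an unadjusted p under 0.05, 2 of the 3 were lower and 1 was higher, against 26.7% of all genes in either direction. Col1a2, a collagen gene of stromal cells, had 1.15, 4.77 and 2.01 in circulating libraries, against 0.0195, 0.375 and 0.251 in endogenous libraries. It was higher in every circulating library, opposite to the sum, but did not pass (limma adjusted p = 0.0518, log2 fold change 1.47). The part of these markers in the Hox values was not tested.

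**Figure D2:**
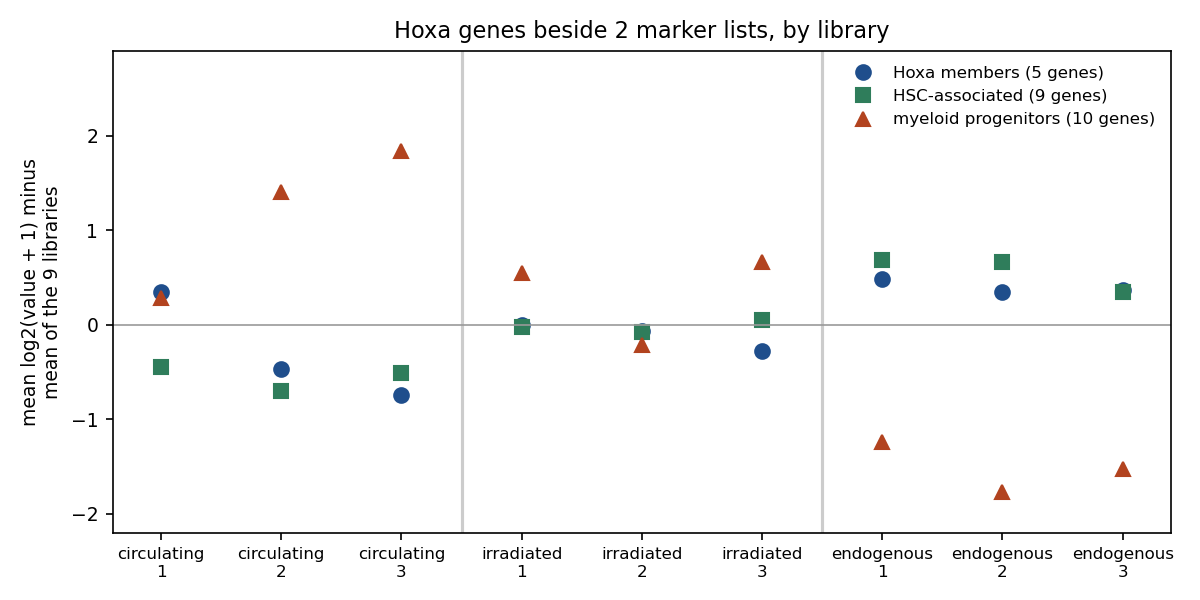
Mean log2(value + 1) of the 5 Hoxa genes, 9 stem cell associated genes and 10 myeloid progenitor genes in each library, each gene centred on its mean of the 9 libraries. The Hoxa mean is 0.35 in circulating replicate 1 and -0.47 and -0.74 in replicates 2 and 3, against 0.35 to 0.49 in endogenous libraries.

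The Hoxb genes rested on low counts, from 1.19 to 62.61 estimated counts in circulating and endogenous libraries. Hoxa5 was also low in circulating replicates 2 and 3, with 31 and 23 estimated counts. Hoxb2 had 2.04, 0.990 and 0.0957 in circulating libraries, against 2.23, 0.501 and 1.17 in endogenous libraries, and the lowest of these rested on 1.19 estimated counts. Hoxb4, whose forced expression expands mouse stem cells, had 0.543, 0.864 and 0.198 in circulating libraries, against 0.447, 0.811 and 1.38 in endogenous libraries. Hoxb5, used in a reporter mouse to mark long-term stem cells, had 0.429, 0.713 and 1.61 in circulating libraries, against 0.0973, 2.78 and 0.986 in endogenous libraries. All 3 genes overlapped between these groups. Their intervals were wide, from -1.18 to 0.73 for the log2 fold change of Hoxb2, from -1.01 to 0.44 for Hoxb4 and from -1.11 to 0.87 for Hoxb5, and each held 0.

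**Figure D3:**
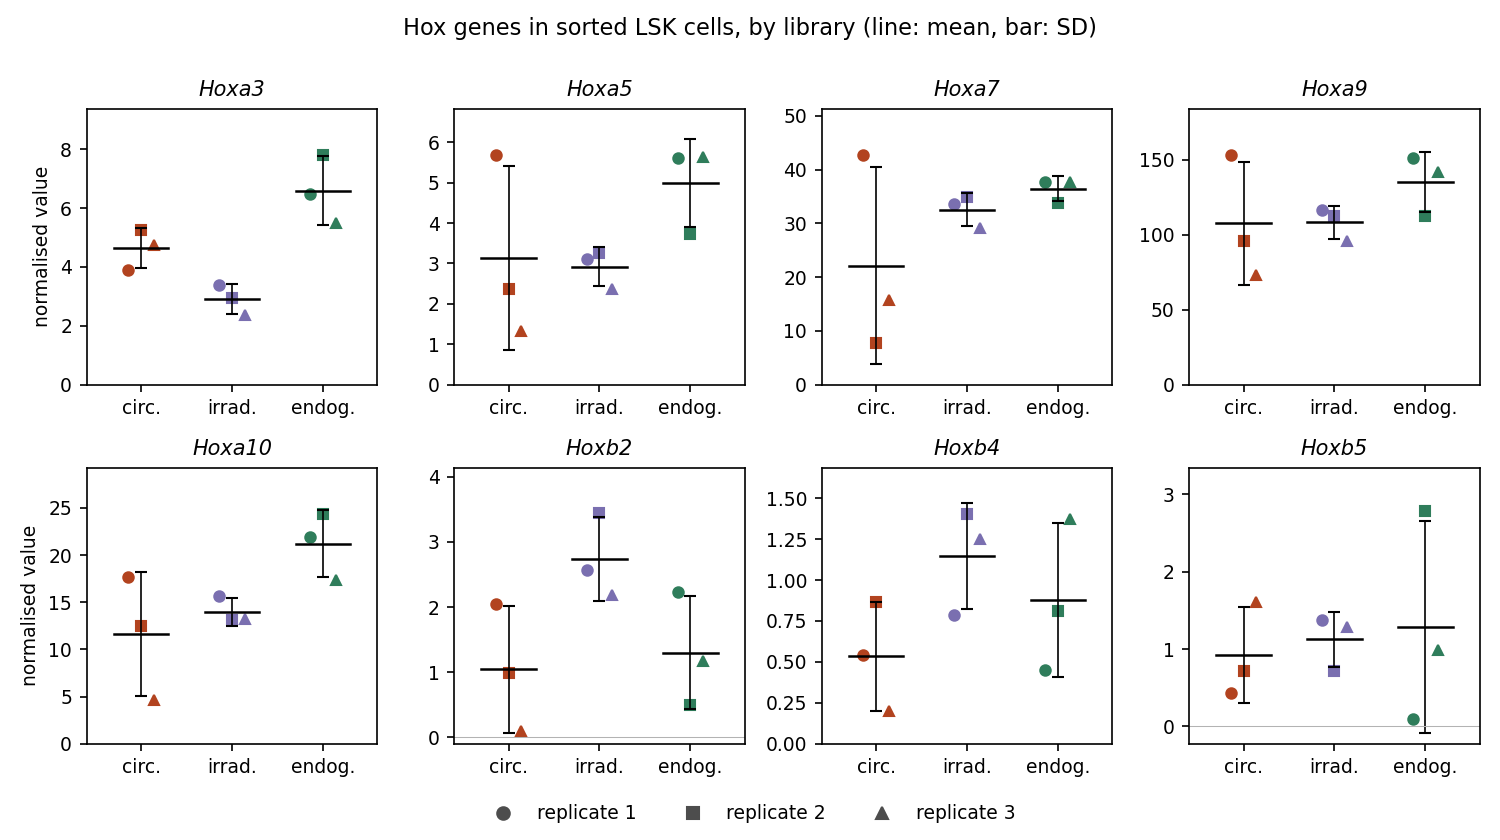
Normalised value of the 8 Hox genes in each library (linear axes that differ between panels); lines are group means, bars are SD over 3 libraries and shapes mark replicates 1 to 3. Circulating replicate 1 lies at 42.8 for Hoxa7 and 153 for Hoxa9, above the endogenous libraries, and circulating replicates 2 and 3 lie below them.

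Circulating cells were then compared with irradiated cells, which carry the same strain label. The Hoxa genes of irradiated cells were close together between replicates: Hoxa9 had 117, 113 and 95.9, Hoxa7 had 33.6, 34.9 and 29.1, and Hoxa10 had 15.7, 13.1 and 13.2. Circulating replicate 1 was above and replicates 2 and 3 below all irradiated libraries for each of these genes. For Hoxa9 in circulating replicate 2 the margin was small (95.79 against 95.88 in irradiated replicate 3). The log2 fold change of circulating against irradiated cells was -0.07 for Hoxa9 (SE 0.24, 95% interval -0.59 to 0.45, limma adjusted p = 0.937). For Hoxa7 it was -0.85 (SE 0.45, 95% interval -1.83 to 0.13, limma adjusted p = 0.499), and without circulating replicate 1 it was -1.47 (adjusted p = 0.049), when 137 genes in all were called in place of 4. For Hoxa10 it was -0.41 (SE 0.40, limma adjusted p = 0.727).

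Hoxa3 and Hoxb2 were the members whose circulating and irradiated libraries did not overlap. Hoxa3 had 3.91, 5.27 and 4.76 in circulating libraries, against 3.38, 2.96 and 2.38 in irradiated libraries, so it was higher in every circulating library (log2 fold change 0.53, SE 0.32, limma adjusted p = 0.564). Hoxb2 had 2.04, 0.990 and 0.0957 in circulating libraries, against 2.57, 3.45 and 2.19 in irradiated libraries, and was lower in every circulating library (log2 fold change -0.98, SE 0.44, limma adjusted p = 0.429). Hoxb3os, the antisense transcript that shares exon sequence with Hoxb2, had 2.54, 0.437 and 1.21 in circulating libraries, against 5.61, 10.5 and 4.14 in irradiated libraries (log2 fold change -1.70, SE 0.44, limma adjusted p = 0.239). It was lower in every circulating library as well, and since strand was not recorded the signals of Hoxb2 and Hoxb3os over their shared exons cannot be told apart. Hoxb3os also shares 52.9% of the exon bases of Hoxb3, which has no row. Signals of Hoxb3 and Hoxb3os over those bases cannot be told apart either.

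Between circulating and irradiated cells 0 of 8 Hox genes were called by limma, against 0.029% of all genes, and 0 of 8 by voom. At an unadjusted p under 0.05 there was 1 of 8 (Hoxb2), against 11.4% of all genes. Groups did not overlap for 1 of 8 with circulating cells higher, against 7.46% of all genes, and for 1 of 8 with circulating cells lower, against 9.26%. The median log2 fold change was -0.29 for the Hox genes and -0.02 for all genes. The myeloid progenitor genes summed to 8029 to 16915 and the stem cell genes to 329 to 340 in irradiated libraries. In this comparison, in which 0.029% of all genes were called by limma, 0 of 10 and 0 of 9 were called. At an unadjusted p under 0.05, 5 of the 10 myeloid genes were higher, against 11.4% of all genes in either direction. Of the 9 stem cell genes 4 were lower at that p, against 6.51% of all genes.

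Irradiated cells were compared with endogenous cells last; this comparison shares the endogenous libraries with the first and the irradiated libraries with the second. Hoxa3 was the member with an unadjusted p under 0.05: it had 3.38, 2.96 and 2.38 in irradiated libraries, against 6.48, 7.82 and 5.49 in endogenous libraries. All irradiated libraries lay below all endogenous ones, averaging 2.9 ± 0.505 over the irradiated and 6.60 ± 1.17 over the endogenous libraries (log2 fold change -0.96, SE 0.32, 95% interval -1.66 to -0.25, limma adjusted p = 0.188). The antisense transcript Hoxaas2, which shares exon sequence with Hoxa3, had 0.993, 0.174 and 1.02 in irradiated libraries, against 3.66, 1.47 and 2.67 in endogenous libraries (log2 fold change -1.05, SE 0.40, limma adjusted p = 0.245). It too was lower in every irradiated library.

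Hoxa10 and Hoxa5 also had groups that did not overlap between irradiated and endogenous cells. Hoxa10 had 15.7, 13.1 and 13.2 in irradiated libraries, against 21.9, 24.4 and 17.4 in endogenous libraries (log2 fold change -0.56, SE 0.40, limma adjusted p = 0.573). Hoxa5 had 3.12, 3.27 and 2.37 in irradiated libraries, against 5.62, 3.74 and 5.63 in endogenous libraries (log2 fold change -0.60, SE 0.42, limma adjusted p = 0.557). Hoxa9 and Hoxa7 overlapped, with log2 fold changes of -0.31 and -0.16. The Hoxb genes had positive log2 fold changes, 0.76 for Hoxb2, 0.21 for Hoxb4 and 0.06 for Hoxb5, and all overlapped. The antisense transcript Hoxb3os had 5.61, 10.5 and 4.14 in irradiated libraries, against 2.25, 1.94 and 3.43 in endogenous libraries, without overlap (log2 fold change 1.07, SE 0.44, limma adjusted p = 0.277).

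Between irradiated and endogenous cells 0 of 8 Hox genes were called by limma, against 0.603% of all genes, and 0 by voom. At an unadjusted p under 0.05 there was 1 of 8 (Hoxa3), against 14.9% of all genes. Groups did not overlap for 3 of 8, all with irradiated cells lower, against 12.5% of all genes in that direction. The median log2 fold change was -0.24 for the Hox genes and -0.01 for all genes. In this comparison 5 of 10 myeloid progenitor genes rose, against 0.472% of all genes. Of 9 stem cell genes 0 were called by limma and 5 were lower at an unadjusted p under 0.05, against 5.49% of all genes.

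**Figure D4:**
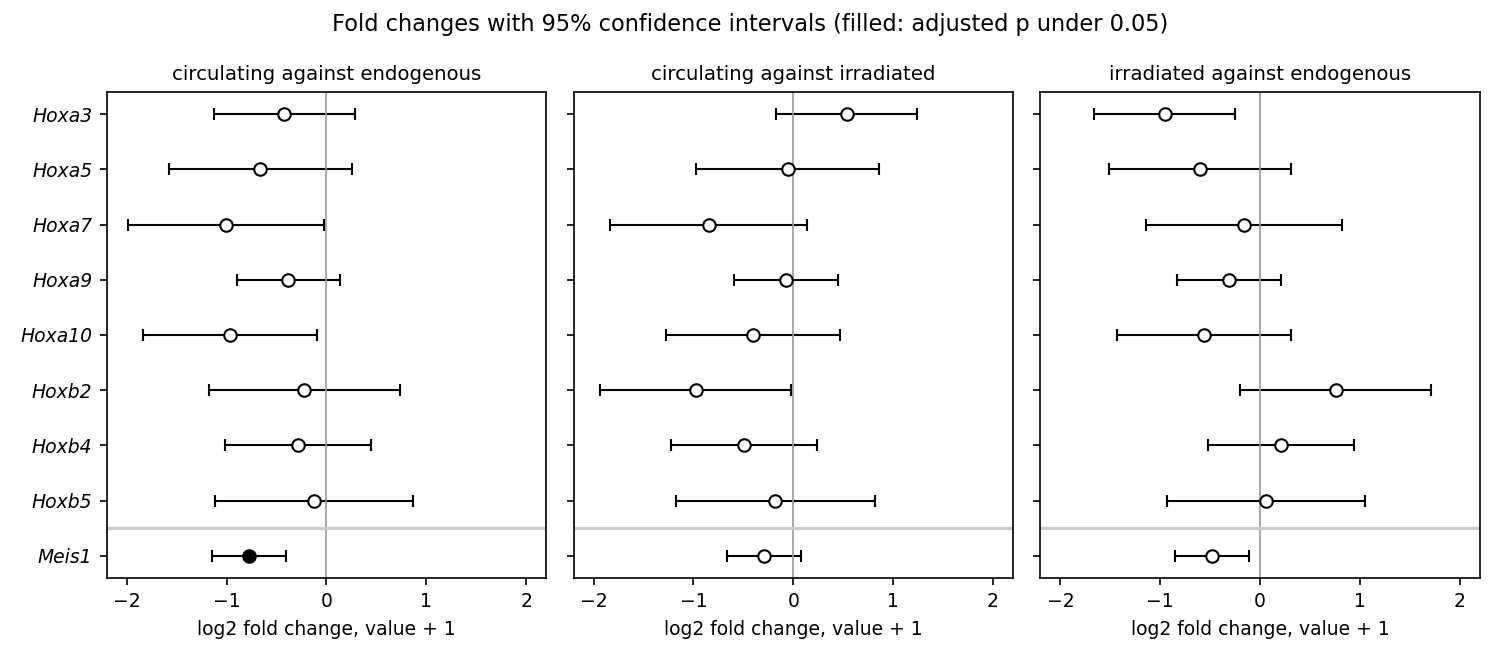
Log2 fold change of log2(value + 1) with 95% confidence interval for the 8 Hox genes and, below the grey line, the cofactor gene Meis1, in the 3 comparisons; filled points have an adjusted p under 0.05. Only Meis1 in circulating against endogenous cells (-0.78) is filled.

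Among the cofactor genes of the TALE class, Meis1 fell in circulating cells against endogenous cells. Meis1, the partner of Hoxa9 in stem cells and in leukaemia, had 250.1, 239 and 153 in circulating libraries, against 377, 352 and 349 in endogenous libraries. Every circulating library lay below every endogenous one, replicate 1 included, and Meis1 fell, averaging 214 ± 53.3 over the circulating and 359 ± 15.1 over the endogenous libraries (log2 fold change -0.78, SE 0.17, limma adjusted p = 0.0227). Meis1 lost its call without endogenous replicate 1, 2 or 3 (adjusted p = 0.082, 0.067 and 0.057). It was also lost in a fit of these groups alone (0.075).

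Between circulating and endogenous cells 1 of the 6 cofactor genes counted here fell, against 3.3% of all genes called lower, and 5 did not pass. In the same comparison 3 of 6 had groups that did not overlap, all lower, against 12.9% of all genes in that direction. As highest circulating against lowest endogenous value, Meis1 had 250.1 against 349. For Pbx2 (4.77 against 4.79) and Pbx3 (1.56 against 1.57) the groups were apart only narrowly. Pbx2 had 4.0, 4.77 and 2.74 in circulating libraries, against 6.47, 4.79 and 6.75 in endogenous libraries (log2 fold change -0.54, limma adjusted p = 0.323). Pbx3, a further partner of Hoxa9 in leukaemia, had 1.56, 1.09 and 0.425 in circulating libraries, against 5.39, 13.5 and 1.57 in endogenous libraries (log2 fold change -1.65, SE 0.58, limma adjusted p = 0.097). Without endogenous replicate 3 it was called lower (-2.29, adjusted p = 0.044). Its highest circulating library lay just below the lowest endogenous one, and the endogenous libraries differed widely among themselves. Meis3 was at 0 counts in circulating replicate 1 and had 2.82 and 1.5 in the other circulating libraries, against 3.60, 5.45 and 0.948 in endogenous libraries. Pbx4 and Pknox1 were close between the groups, with log2 fold changes of 0.25 and 0.22.

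In circulating against irradiated cells, 0 of 6 cofactor genes were called by limma, with 2 lower at an unadjusted p under 0.05, against 6.51% of all genes. Pbx2 and Pbx3 were lower without overlap, as were 9.26% of all genes, with log2 fold changes of -0.79 and -1.44. Meis1 overlapped between these groups (-0.30, limma adjusted p = 0.542). In irradiated against endogenous cells, 0 of 6 were called by limma, with 1 lower at an unadjusted p under 0.05, against 5.49% of all genes. That gene was Meis1, with 256, 244 and 271 in irradiated libraries, against 377, 352 and 349 in endogenous libraries (log2 fold change -0.48, SE 0.17, limma adjusted p = 0.206). It was lower without overlap, as were 12.5% of all genes. Pknox1 went the other way without overlap, with 71.7, 71.0 and 78.3 in irradiated libraries, against 66.8, 60.7 and 48.7 in endogenous libraries (log2 fold change 0.33, limma adjusted p = 0.417). Meis1 was called in this comparison in the fit of these groups alone (adjusted p = 0.023), with sample weights (0.036) and without circulating replicate 3 (0.042), with a log2 fold change of -0.48 in each. Those fits called more genes of every kind: 757, 897 and 235 over all genes, in place of 83.

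**Figure D5:**
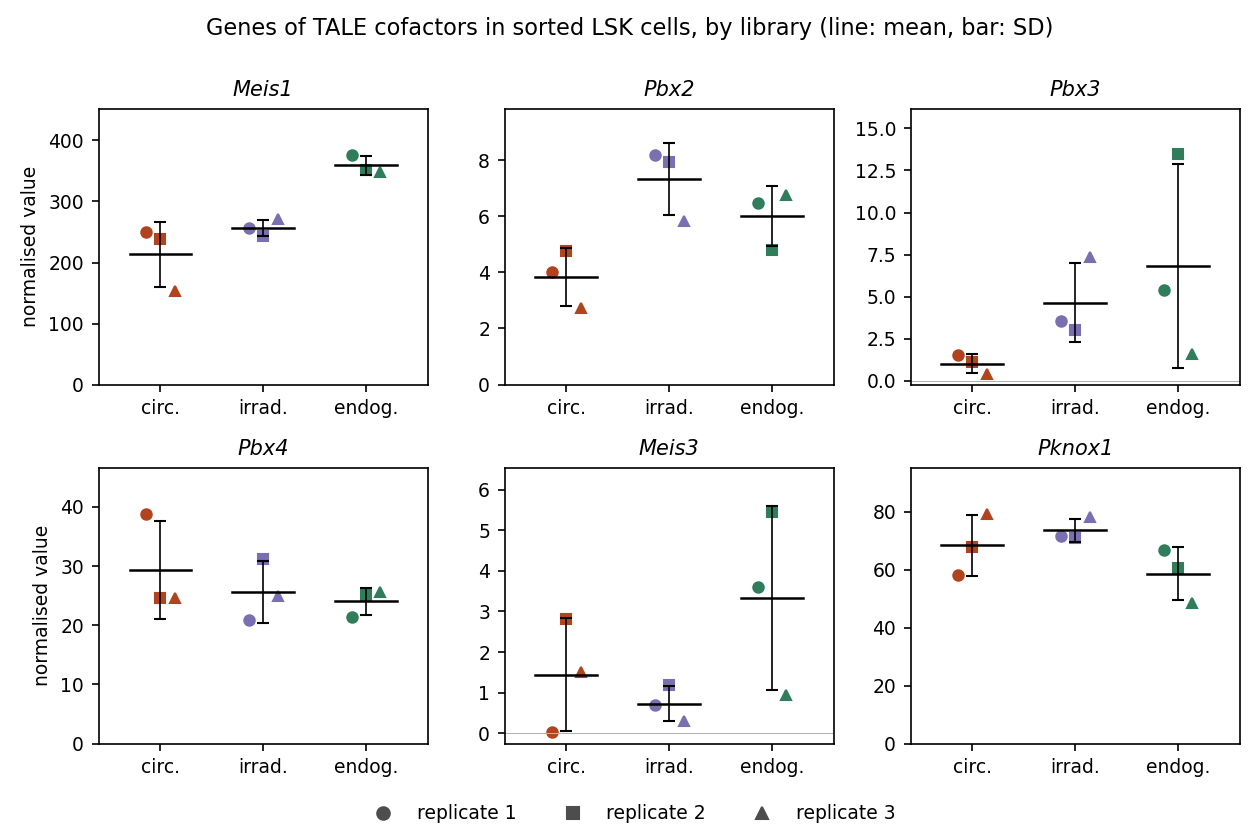
Normalised value of the 6 TALE cofactor genes in each library (linear axes that differ between panels); lines are group means, bars are SD over 3 libraries and shapes mark replicates 1 to 3. Meis1 lies at 153 to 250.1 in circulating, 244 to 271 in irradiated and 349 to 377 in endogenous libraries.

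In the fit of all 9 libraries, few regulators of Hox transcription were called, all between circulating and endogenous cells. Over all genes 5.33% were called higher and 3.3% lower, so 1 call in a list of 10 to 12 genes lies near the share of all genes. Of 10 genes of the MLL complexes, 2 rose: Ash2l, a core subunit, averaged 247 ± 35.8 over circulating and 154 ± 15.4 over endogenous libraries (log2 fold change 0.67, limma adjusted p = 0.0239), and Dpy30, another core subunit, was 121 ± 9.39 in circulating and 81.3 ± 9.27 in endogenous cells (0.57, adjusted p = 0.0329). Of 10 genes of DOT1L and the elongation complexes, 1 fell: Mllt3, which encodes AF9 and is known to sustain human stem cells in culture, was 37.2 ± 11.3 in circulating and 69.5 ± 10.7 in endogenous cells (-0.91, adjusted p = 0.0325). Of 10 genes of Polycomb repressive complex PRC2, 1 rose: Rbbp7, a histone-binding subunit shared with other complexes, was 983 ± 35.0 in circulating and 779 ± 36.8 in endogenous cells (0.34, adjusted p = 0.0406). Of 12 genes of PRC1, 1 fell: Cbx7, a reader of trimethylated H3K27 that favours self-renewal in stem cells, had 7.80, 0.492 and 3.80 in circulating libraries, against 22.3, 13.4 and 15.6 in endogenous libraries (-2.15, SE 0.56, adjusted p = 0.0388). Every circulating library of Cbx7 was below the endogenous ones.

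The demethylase genes of H3K27 did not pass. Kdm6a had 47.6, 54.2 and 46.8 in circulating libraries, against 62.9, 57.9 and 62.2 in endogenous libraries, and Kdm6b had 6.83, 3.62 and 5.72 in circulating libraries, against 7.42, 3.45 and 5.03 in endogenous libraries. Of 11 genes reported as targets of Hoxa9 or Meis1, 1 fell, against 3.3% of all genes: Lmo2, a scaffold of stem cell transcription factor complexes, averaged 348 ± 20.8 over circulating and 528 ± 78.6 over endogenous libraries (log2 fold change -0.59, limma adjusted p = 0.0284). Mllt3 also stands in the stem cell list, and the targets Flt3 and Cd34 also stand in the list of gate markers. The median log2 fold change of the targets was -0.59, beside -0.04 for all genes. The medians of the regulator lists were 0.16 for the MLL complexes, -0.14 for DOT1L and elongation, 0.24 for PRC2 and -0.36 for PRC1. The 6 calls in these lists were all lost with sample weights (adjusted p = 0.054 to 0.083) and in the fit of the circulating and endogenous groups alone (0.073 to 0.131). Cbx7 was also lost with a pseudocount of 0.1 and with voom (0.060 each). Each was also lost when certain single libraries were left out. Lmo2 lost its call without circulating replicate 2 or 3 or endogenous replicate 1 or 3 (adjusted p = 0.053 to 0.109), and Ash2l without circulating replicate 2 or 3 or any endogenous replicate (0.054 to 0.081). Dpy30 lost it without circulating replicate 3, any irradiated replicate or endogenous replicate 1 or 2 (0.057 to 0.116). Mllt3 lost it without circulating replicate 2 or any irradiated or endogenous replicate (0.054 to 0.118), and Cbx7 without circulating replicate 3 or any irradiated or endogenous replicate (0.059 to 0.133). Rbbp7 kept its call in 1 of 9 such fits, that without circulating replicate 1 (0.060 to 0.138 in the others). In the fit of all 9 libraries no member of these lists was called by limma in circulating against irradiated or irradiated against endogenous cells. Lmo2 was called in circulating against irradiated cells without circulating replicate 1 (log2 fold change -0.80, adjusted p = 0.043).

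The genes whose pattern over the 9 libraries was most like that of a Hox gene were listed by Pearson r of log2(value + 1) among about 9228 candidate genes, those with a mean log2(value + 1) of 3 or more. Of the Hox genes only Hoxa7, Hoxa9 and Hoxa10 reached that mean, so the others could not be listed as partners. Hoxa5 was most like Hoxa9 (r = 0.99). Hoxa10 was most like Arhgef5 and the PRC1 gene Phc1 (0.98 each), and Hoxa7 most like Zfp592 (0.98). Among the candidates Hoxa9 was most like Ighmbp2 (0.96) and Mxd4 (0.95), both below its r with Hoxa5. Hoxa3 was most like Trim12a (0.98) and Epha7 (0.96). The Hoxb genes, at low counts, reached 0.95 with Plec for Hoxb2, 0.93 with Hnrnpr for Hoxb4 and 0.92 with Ipmk for Hoxb5. The points of each r share the groups and the libraries, and the split of the circulating libraries weighs on all of them. Each partner was also picked as the highest among about 9228 genes over only 9 libraries. Such a choice gives high r among unrelated genes too, and whether these genes vary together was not tested. As a ratio of levels per kilobase, Hoxa7 was 54.1%, 15.6% and 41.8% of Hoxa9 in circulating libraries, against 55.9%, 60.2% and 58.9% in irradiated and 48.4%, 58.3% and 51.7% in endogenous libraries. Circulating replicate 2 was thus the library in which Hoxa7 and Hoxa9 were farthest apart.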

How the data were processed

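RNA was sequenced from LSK cells in 9 libraries, 3 per group. Per the labels' protocols, SMART-Seq v4 gave the cDNA and Nextera XT the libraries. RSEM 1.3.1, CASAVA, limma and mm10 are named in the submitters' processing notes; how values were scaled and genes filtered was not given in the sources used here. As deposited by the authors, the table holds a normalised signal for each gene and library: the values have the form of an estimated count plus an offset, divided by a scaled library size. From them, estimated counts with 2 decimals were recovered in every column, 14065855 to 27012345 per library. The chemistry adds no molecular identifiers, so these depths speak of counting error only.

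The test was limma-trend with robust moderation on log2(value + 1), in limma 3.58.1 under R 4.3.3, with all 9 libraries in one fit and no covariate. Genes with a value of 1 or more in 3 or more libraries were tested (13771 genes), p-values were adjusted over all of them by the Benjamini-Hochberg method, and a gene was called under 0.05. The fit was tested on simulated data. Levels per kilobase used the merged exon length of GENCODE on GRCm38; a symbol was found for 14405 genes and none for 56. The alternatives were other pseudocounts, no filter, sample weights, the compared groups alone, voom on recovered counts, other scalings, non-robust moderation, blocks and leaving out each library.

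Named were all listed Hox genes with a row, the TALE cofactors, from each other list up to 4 called members (or up to 2 of the highest mean where none was called), and per Hox gene the 2 tested genes of highest Pearson r whose mean log2 value was 3 or more, predicted loci left out. The noncoding neighbours Hoxaas2, Hoxaas3 and Hoxb3os were named because they share exons with members. The members and the lists were chosen with earlier results of these data known, and no list was tested as a set. A few genes that this rule names are not reported here. Marker lists are given by counts and sums.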

Additional observations from a re-analysis of the deposited data

How the results depend on the processing

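The count of Hox genes called by limma stayed at 0 in all 3 comparisons with a pseudocount of 0.1 or 5, no filter, sample weights, the compared groups alone, voom, library totals, median-of-ratios scaling, non-robust moderation and the blocks. Leaving out each library in turn gave 0 to 3 in circulating against endogenous cells, 0 to 1 in circulating against irradiated cells and 0 in irradiated against endogenous cells. The cause was not tested. Circulating and irradiated libraries of one number share a DD code in their titles, which the labels do not explain; their deviations from the group means correlated at 0.050, 0.031 and 0.18. Over all groups same-numbered libraries correlated at -0.02 to 0.18 and libraries of unlike number at -0.17 to 0.11. In 9 of 18 cases a library correlated best with its own number in another group. These values do not decide whether the numbers are pairs. The main fit used no pairing, and blocks were tried beside it. With the number as a replicate block 0 Hox genes were called and 9 genes in all in circulating against irradiated cells, in place of 4; with the DD code as block 0 and 2. Rbbp7 in circulating against endogenous cells had an adjusted p of 0.052 with the number as block and 0.055 without robust moderation.

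Counts over all genes moved by more than 1.5 times under several settings. In circulating against endogenous cells 1189 became 239 with those groups alone, 494 with sample weights, 748 with voom and 257 to 2224 without 1 library. In circulating against irradiated cells 4 became 15 with a pseudocount of 5, 11 with library totals, 7 with voom and 3 to 137 without 1 library. In irradiated against endogenous cells 83 became 757 with those groups alone, 897 with sample weights and 6 to 263 without 1 library. With library totals the median gene was at -0.22 in circulating against endogenous and at -0.13 in irradiated against endogenous cells, in place of -0.04 and -0.01; no Hox gene was called on that scale either, and Ash2l (adjusted p = 0.067), Dpy30 (0.110) and Rbbp7 (0.393) lost their calls.

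Signs changed only for values that were not called. Hoxb5 in circulating against endogenous cells was 0.085 with a pseudocount of 0.1 and 0.31 with voom. Hoxb5 in irradiated against endogenous cells was -0.018 with a pseudocount of 5 and -0.000856 with library totals, under which Pbx4 was at -0.055 and Hoxaas3 at -0.055. In circulating against irradiated cells Hoxa5 was 0.0038 with a pseudocount of 5 and Meis3 -0.81 with voom. Without 1 library, ranges in circulating against endogenous cells were -0.56 to 0.33 for Hoxb5 and -0.57 to 0.17 for Hoxb2. In circulating against irradiated cells they were -0.48 to 0.28 for Hoxa5, -0.36 to 0.17 for Hoxa9, -0.77 to 0.089 for Hoxa10, -0.43 to 0.0096 for Hoxb5, -0.041 to 0.32 for Pbx4 and -0.081 to 0.87 for Meis3. In irradiated against endogenous cells they were -0.38 to 0.51 for Hoxb5, -0.070 to 0.21 for Pbx4, -0.85 to 0.40 for Pbx3 and -0.19 to 0.20 for Hoxaas3.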
